A study of Mus musculus with 10 samples.

Results

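The Sox factors other than Sox2 that were followed here are Sox4, Sox11, Sox12, Sox5, Sox6, Sox8, Sox9, Sox18 and Sox21. They are 9 of the 20 Sox genes among the 32285 genes of the count tables, and they were chosen by gene symbol. Expression was measured by droplet single-cell RNA sequencing of wild type NMRI mouse embryos, with no treatment, at 3 stages. The E11.5 cells came from whole mandibles at the initiation of tooth development. The E14.5 and E16.5 cells came from lower incisor buds, so the dissected tissue changed together with the stage between E11.5 and E14.5. The labels list 4, 4 and 2 samples from the earliest stage to the latest, and each stage drew on mandibles of more than 1 litter. All barcodes of a stage were deposited in 1 matrix and carried no mark of their sample, so each stage was 1 sample here, and stage and sample cannot be told apart. Nothing below therefore has a replicate check or a p-value.

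SOX proteins are transcription factors that bind DNA through the HMG box, a domain they share with the sex-determining factor SRY. The family is divided into subfamilies by the sequence of this box. SoxC factors (Sox4, Sox11, Sox12) are widespread in embryonic progenitor cells. SoxD factors (Sox5, Sox6, Sox13) have no activation domain of their own, and Sox5 and Sox6 work with SOX9 in cartilage. SoxE factors (Sox8, Sox9, Sox10) act in neural crest, cartilage and glia, and Sox9 also in several epithelial stem cell compartments. SoxF factors (Sox7, Sox17, Sox18) act in blood and lymph vessels. Sox21 belongs to SoxB2, whose members repress targets that SoxB1 factors such as SOX2 activate. In the mouse incisor, Sox2 marks the epithelial stem cells of the cervical loop, and the surrounding mesenchyme forms the dental papilla and the jaw bone.

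The HMG box shows how the 9 genes are related, and a stretch of 60 coding bases from within it is given for each. It is read 5′ to 3′ on the coding strand from the GENCODE vM21 transcripts (GRCm38). The stretch starts at the same codon in every gene and lies within 1 exon in each. Capitals mark the bases that differ from Sox4 at the same place.
Sox4: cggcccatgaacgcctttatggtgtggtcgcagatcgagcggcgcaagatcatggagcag
Sox11: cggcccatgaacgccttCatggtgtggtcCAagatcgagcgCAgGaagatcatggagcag
Sox12: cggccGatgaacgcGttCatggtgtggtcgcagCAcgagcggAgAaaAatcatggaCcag
Sox5: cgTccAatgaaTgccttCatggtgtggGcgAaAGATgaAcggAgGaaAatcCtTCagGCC
Sox6: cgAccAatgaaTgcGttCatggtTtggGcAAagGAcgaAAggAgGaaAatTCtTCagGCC
Sox8: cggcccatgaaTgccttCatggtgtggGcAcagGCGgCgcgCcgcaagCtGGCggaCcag
Sox9: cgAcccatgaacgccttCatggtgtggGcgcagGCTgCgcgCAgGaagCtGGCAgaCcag
Sox18: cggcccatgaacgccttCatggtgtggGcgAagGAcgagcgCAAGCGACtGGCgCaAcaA
Sox21: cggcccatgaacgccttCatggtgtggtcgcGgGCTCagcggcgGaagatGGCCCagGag

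Relative to Sox4, the stretch differed at 6 bases in Sox11 and 9 in Sox12, the other SoxC genes. It differed at 13 bases in Sox21, 14 in Sox8, 16 in Sox9, 19 in Sox18, 20 in Sox5 and 23 in Sox6. Between the partners of a subfamily, Sox5 and Sox6 differed at 8 bases and Sox8 and Sox9 at 7. The stretches lie on GRCm38 at chr13:28952782-28952841 (Sox4, minus strand), chr12:27342199-27342258 (Sox11, minus), chr2:152397516-152397575 (Sox12, minus), chr6:143841214-143841273 (Sox5, minus), chr7:115489703-115489762 (Sox6, minus), chr17:25570163-25570222 (Sox8, minus), chr11:112782903-112782962 (Sox9, plus), chr2:181671222-181671281 (Sox18, minus) and chr14:118235549-118235608 (Sox21, minus). By annotation, Sox4, Sox11, Sox12 and Sox21 are genes of 1 exon, whereas the longest coding transcript of Sox5 has 15 exons and that of Sox6 has 16. Sox5 spans 953553 bases and Sox6 567925, whereas the remaining 7 genes span between 1805 and 8311.

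Barcodes with fewer than 700 detected genes or more than 20% mitochondrial UMIs were removed. This left 6573 of 8708 barcodes for E11.5, 6091 of 8192 for E14.5 and 4511 of 5719 for E16.5. A kept cell had a median of 5664, 3471 and 6260 UMIs (unique molecular identifiers, each a counted RNA molecule), and the 9 genes together gave 87373, 23049 and 32340 UMIs. Between 13 and 17 barcodes were found at both stages of a pair. Each cell was assigned to a lineage when at least 3 markers of that lineage were detected and their summed UMIs were at least 2 times those of any other such lineage. No Sox gene was used as a marker. Mesenchyme held 5220, 4367 and 2474 cells (here and below, 3 values in a row are those of E11.5, E14.5 and E16.5 in that order), of which 897, 537 and 85 had exactly 3 markers. Epithelium held 689 cells at E14.5 and, at the last stage, 1487, of which 140 and 117 had exactly 3 markers. Only 9 cells were called epithelium at E11.5, too few for any comparison. Endothelium held 67, 147 and 113 cells, immune cells numbered 54, 124 and 26, and erythroid cells 118, 140 and 63. The median endothelial cell had 22, 14 and 33 UMIs of endothelial markers and 0 of mesenchymal or epithelial ones. Erythroid cells carried a median of 0, 9 and 10 UMIs of mesenchymal markers, and the part of these UMIs in their Sox values was not tested. By the cartilage markers, which had a median of 0 UMIs in every lineage, 1 cell of E14.5 was called cartilage.

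Levels are a gene's summed UMIs over all cells of a lineage, as counts per 1e6 UMIs (CPM). These are 3′ end counts of molecules, so levels were not divided by transcript length. Levels of different genes are set side by side as counted, and differences between genes in how well they are captured were not tested. Square brackets hold 95% intervals, exact Poisson for CPM and exact Clopper-Pearson for shares of cells, and they cover counting error only. Differences are log2 ratios after 10 CPM were added to both levels, which draws the ratios of low genes towards 0.

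SoxC genes made up most Sox UMIs in mesenchyme, epithelium and endothelium at each stage in which the lineage was measured. In mesenchyme, the SoxC share of the UMIs of all 20 Sox genes was 90.7% [90.5, 90.9], 89.2% [88.6, 89.7] and 81.4% [80.7, 82.1]. Sox UMIs of all kinds stood at 1931, 784 and 660.8 CPM there, so the smaller share came with a smaller total. The mesenchymal SoxD share was 2.80%, 5.63% and 7.58%, and the SoxE share 6.47%, 4.69% and 10.4%. The SoxD share includes Sox13, which gave 109 of the 2249 SoxD UMIs in E11.5 mesenchyme and 90 of the 203 in E14.5 epithelium. In epithelium, SoxC took 90.1% [89.4, 90.7] and later 83.0% [82.4, 83.6], while SoxE had 2.91% [2.54, 3.32] at E14.5 and 13.5% [13, 14] at E16.5. Sox2, the SoxB1 factor of the dental stem cells, gave all of the 4.11% and 1.68% of epithelial Sox UMIs that were SoxB1. Endothelium differed from both by its SoxF share of 24.7% [21.8, 27.7], 14.9% [12, 18.3] and 37.7% [34.6, 40.9].

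**Figure D1:**
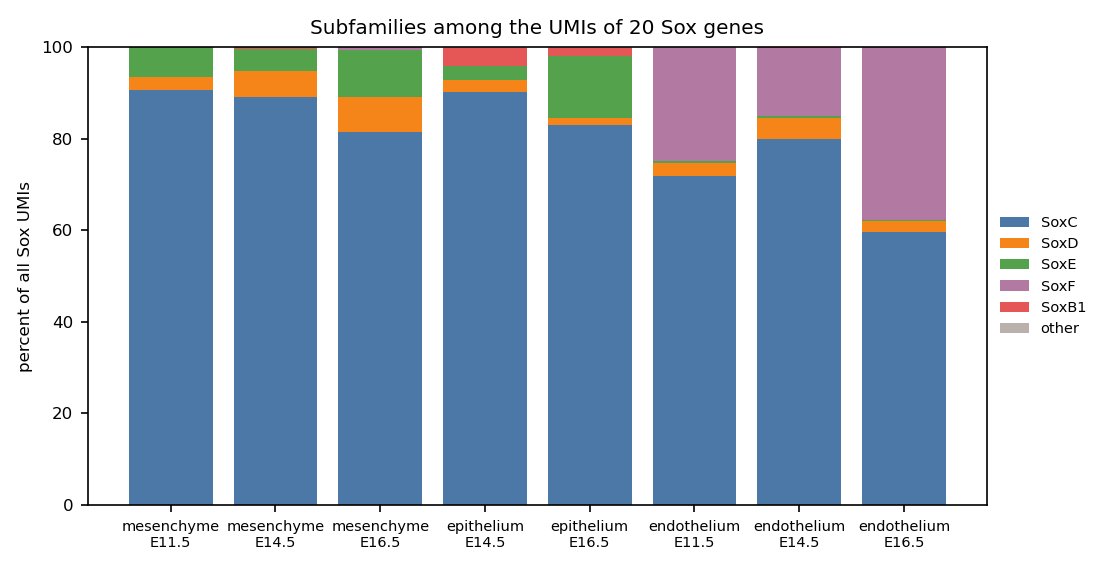
Share of the UMIs of 20 Sox genes (percent, vertical axis) taken by each subfamily, as stacked bars for 8 groups of cells by lineage and stage. SoxC fills between 59.6% (endothelium, E16.5) and 90.7% (mesenchyme, E11.5) of each bar, SoxF is visible in endothelium, and SoxE widens in epithelium from 2.91% to 13.5%.

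Sox11, a factor of proliferating and migrating progenitors, had the highest level of the 9 genes in E11.5 mesenchyme, at 1274 CPM [1263, 1285], and 97.3% of these cells held at least 1 Sox11 UMI. Its mesenchymal level was 347 CPM [338, 356] at E14.5, and E16.5 gave 249 CPM [242, 256]. Epithelium took the first place at both later stages, with 768.5 CPM [746, 791] and 425 CPM [415, 434]. Epithelium over mesenchyme gave a log2 ratio of 1.12 [1.07, 1.18] at E14.5. Endothelium had 576 CPM [523, 634], 334 CPM [292, 379] and 323 CPM [289, 361], and at E16.5 it lay between epithelium and mesenchyme. In immune cells, Sox11 was at 139, 30.7 and 27.9 CPM. Erythroid cells gave 123, 216 and 172 CPM, lower than any of the 3 tissue lineages at their stage.

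Sox4, the closest relative of Sox11 in sequence, had a narrower range. Mesenchyme had 411 CPM [405, 417], 325 CPM [317, 334] and 258 CPM [250, 265]. Epithelium had 309 CPM [295, 324] at E14.5, below the 377 CPM [368, 386] of E16.5. At E14.5 these neighbours did not differ beyond counting error, with a log2 ratio of mesenchyme over epithelium of 0.07 [-0.003, 0.15]. At E16.5 epithelium was above mesenchyme by 0.53 [0.48, 0.58] on the log2 scale. Endothelium had 226.5, 243 and 229 CPM, with overlapping intervals. Immune cells had 68.5, 47.8 and 31.4 CPM, well below all of these, and erythroid cells had 50.3, 170 and 188 CPM. Cells called glia, which were few, had 294 CPM at E11.5 (14 cells) and 504 CPM at E14.5 (29 cells). At E14.5 glia were above mesenchyme by 0.62 [0.25, 0.97] on the log2 scale.

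Sox12, the least abundant SoxC gene, was at 65.9 CPM [63.4, 68.4], 26.7 CPM [24.3, 29.2] and 31.2 CPM [28.7, 33.8] in mesenchyme. Epithelium gave nearly the same values as mesenchyme, 28.2 CPM [24.1, 32.8] and 29.7 CPM [27.2, 32.4]. The log2 ratio between these lineages had an interval that included 0 at both stages. Endothelial Sox12 rested on 19, 17 and 11 UMIs, at 25.5, 24.1 and 11.2 CPM, and at E16.5 it did not exceed the 21.8 CPM [12.5, 35.4] of erythroid cells. Across the 13 groups of at least 50 cells, the pairs within SoxC had Pearson correlations of 0.86 for Sox4 with Sox11, 0.84 for Sox4 with Sox12 and 0.87 for Sox11 with Sox12. These are descriptions over groups that share their libraries.

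**Figure D2:**
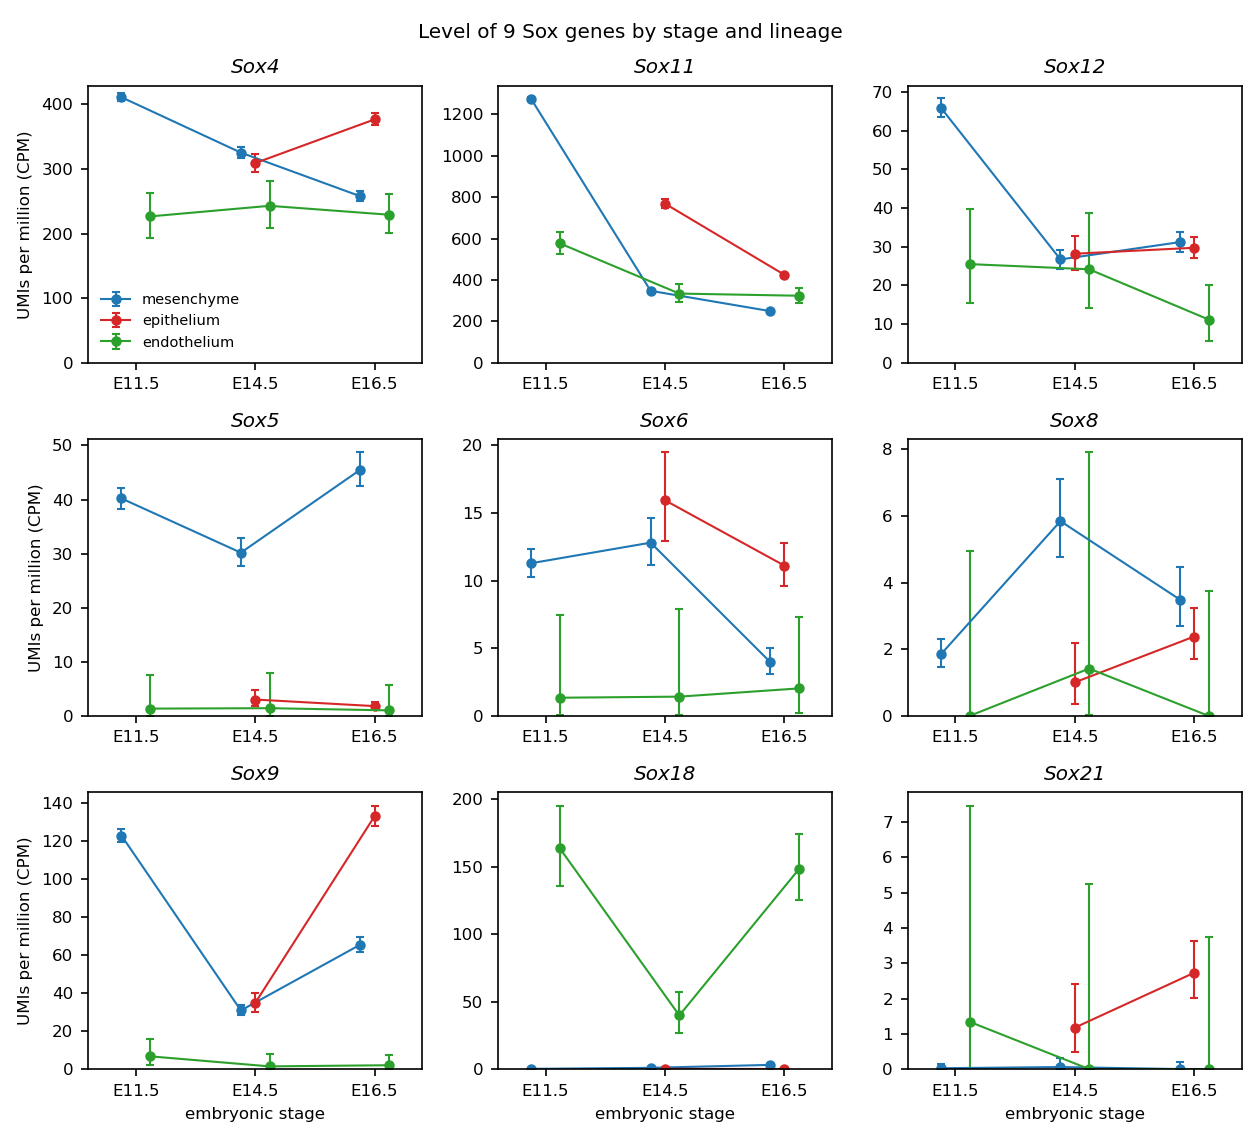
Level of each of the 9 Sox genes (CPM, vertical axis, with a scale of its own in each panel) by embryonic stage in mesenchyme, epithelium and endothelium, with bars for the 95% counting interval and lines joining the stages of a lineage, each stage being 1 sample. Sox11 in mesenchyme goes from 1274 to 249 CPM, Sox9 is lowest at E14.5 in mesenchyme (30.8 CPM) and highest in epithelium at E16.5 (133 CPM), and Sox18 is high in endothelium alone among these 3 lineages.

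Among the groups of at least 50 cells, the SoxD gene Sox5 was highest in mesenchyme at each stage. Its mesenchymal level was 40.2 CPM [38.3, 42.2], 30.2 CPM [27.6, 32.9] and 45.5 CPM [42.5, 48.7], whereas epithelium had 3.02 CPM [1.79, 4.77] and 1.80 CPM [1.22, 2.56]. Endothelium gave 1 Sox5 UMI at each stage. A Sox5 UMI was found in 21.1%, 9.59% and 22.4% of mesenchymal cells against 1.85%, 0.806% and 0% of immune cells, whose median depths were 6333, 3329 and 5954 UMIs against 7746, 6534 and 9674. Cells were also thinned to 2000 UMIs each, which left out the shallower ones (332, 568 and 38 mesenchymal, 41 and 83 epithelial and 13, 34 and 6 endothelial cells), so thinned shares describe the deeper cells. The thinned mesenchymal shares were 6.85%, 5.0% and 7.68%. Sox5 also stood out in the few cells called glia by myelin and Schwann cell markers, with 109 CPM [63.3, 174] in 14 cells at E11.5 and 173 CPM [109, 262] in 29 cells at E14.5. Those glial cells carried the glial SoxE gene Sox10 at 147 and 181 CPM.

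Sox6, its SoxD partner, was shared between mesenchyme and epithelium. Mesenchyme had 11.3 CPM [10.3, 12.3], 12.8 CPM [11.2, 14.6] and 3.98 CPM [3.12, 5.01]. Epithelium had 15.9 CPM [12.9, 19.5] at E14.5, followed by 11.1 CPM [9.58, 12.8]. The lineages were therefore close at E14.5, with a log2 ratio of epithelium over mesenchyme of 0.19 [-0.03, 0.40], and had separated by E16.5. Endothelium gave 1, 1 and 2 Sox6 UMIs. Immune cells gave 0 at each stage, where 3 UMIs would have been 6.63, 3.41 and 10.4 CPM. Erythroid cells, which are known to use Sox6, had 1, 7 and 8 UMIs, and at E16.5 their 10.9 CPM [4.70, 21.5] could not be told apart from epithelium.

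Sox9, the main cartilage SoxE factor, was lowest at E14.5 within mesenchyme and higher at E16.5 than at E14.5 within epithelium. Mesenchyme had 123 CPM [119, 126], 30.8 CPM [28.2, 33.5] and 65.4 CPM [61.7, 69.2]. Epithelium had 34.7 CPM [30.1, 39.8] at E14.5, against 133 CPM [128, 138] at E16.5. The lineages did not differ beyond counting error at E14.5, with a log2 ratio of epithelium over mesenchyme of 0.13 [-0.05, 0.31], and at E16.5 epithelium was higher by 0.92 [0.83, 1.01]. A Sox9 UMI was found in 35.5%, 8.66% and 24.4% of mesenchymal cells and in 20.3% and 44.3% of epithelial cells. Thinned to 2000 UMIs, these shares were 17.1%, 5.87% and 10.1% in mesenchyme and 6.33% and 17.9% in epithelium, in the same order. Immune cells held a Sox9 UMI in 9.26%, 0.806% and 3.85% of cells, and endothelium in 7.46%, 0.680% and 1.77%. In erythroid cells, Sox9 reached 46.3 CPM [32.1, 64.7] at E16.5, a stage at which these cells also carried mesenchymal marker UMIs.

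Sox8, the other SoxE member, was rare. Mesenchyme gave 1.85 CPM [1.46, 2.31], 5.85 CPM [4.76, 7.11] and 3.49 CPM [2.69, 4.46]. Epithelium gave 6 and 41 UMIs, or 1.01 CPM [0.369, 2.19] and 2.38 CPM [1.71, 3.23]. Endothelium gave 0, 1 and 0 Sox8 UMIs, and immune cells gave 0 at each stage. At E11.5 the 14 glial cells held 5 Sox8 UMIs, or 32.0 CPM [10.4, 74.6], an interval that lay above that of mesenchyme.

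Sox18, a vessel factor that acts upstream of Prox1 in lymphatic specification, had its highest level in endothelium at each stage. Endothelial levels were 164 CPM [136, 195], 39.8 CPM [26.4, 57.5] and 148 CPM [125, 174], from 122, 28 and 146 UMIs. A Sox18 UMI was found in 58.2%, 15% and 54.9% of endothelial cells, at median depths of 6397, 3191 and 5875 UMIs. Thinned to 2000 UMIs, the shares were 22.2% [12, 35.6], 7.96% [3.71, 14.6] and 25.2% [17.3, 34.6]. The dip at E14.5 was thus present in the level and in the thinned share, though the thinned intervals of E11.5 and E14.5 overlap. Mesenchyme gave 0.168, 0.926 and 3.11 CPM, and 0.134%, 0.344% and 2.26% of its cells held a Sox18 UMI. Endothelium was above the next lineage by 3.78, 2.19 and 3.36 on the log2 scale.

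The other SoxF genes were also lowest at E14.5. Sox7 in endothelium was at 48.3 CPM [33.8, 66.8], 29.8 CPM [18.5, 45.6] and 120 CPM [99.0, 143], and Sox17 at 72.4, 42.6 and 89.2 CPM. From E11.5 to E14.5, Sox18 had a log2 ratio of -1.80 [-2.32, -1.29], Sox17 of -0.65 [-1.21, -0.08] and Sox7 of -0.55 [-1.19, 0.10]. From E14.5 to E16.5 the ratios were 1.67 [1.17, 2.17] for Sox18, 0.92 [0.39, 1.44] for Sox17 and 1.70 [1.16, 2.25] for Sox7. The vessel, arterial and lymphatic genes that were listed had both low and high members in endothelium. Prox1 was at 2.68, 2.84 and 4.06 CPM, and Lyve1 gave 0 UMIs at E11.5 and E14.5 and 1.01 CPM at E16.5. Flt4 was at 76.4, 53.97 and 79.09 CPM, and Nr2f2 at 180.9, 105.1 and 126.7 CPM.

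Sox21, the SoxB2 member, was the rarest. It gave 7 UMIs in 7 epithelial cells at E14.5 and E16.5 gave 47 UMIs in 37 epithelial cells, or 1.17 CPM [0.472, 2.42] and 2.73 CPM [2.01, 3.63]. Mesenchyme gave 1, 1 and 0 UMIs, and at E16.5 3 UMIs would have been 0.164 CPM. Epithelium thus held 7 of the 10 Sox21 UMIs of all kept cells at E14.5, and 47 of 50 at the later stage, with at most 5 UMIs in a cell.

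Stages were compared within mesenchyme and within epithelium, over all genes with at least 50 UMIs in the 2 groups together. From E11.5 to E14.5 in mesenchyme, 7 members were measured. Sox11 was lower with a log2 ratio of -1.85 [-1.88, -1.81], Sox9 with -1.70 [-1.80, -1.60] and Sox12 with -1.05 [-1.16, -0.94], so that 3 of the 7 were at least 2-fold lower, where 1.87% of 12705 genes were. None of the 7 was at least 2-fold higher, where 2.86% of genes were. Sox4 and Sox5 were lower by less than 2-fold, at -0.33 [-0.37, -0.29] and -0.32 [-0.43, -0.21]. Sox6 had 0.10 [-0.03, 0.23] and Sox8 0.42 [0.31, 0.53]. With 1 CPM added in place of 10, Sox8 passed 2-fold upwards, so for this low gene the call depended on that choice. The median ratio was -0.33 over the 7 members and -0.09 over all genes. In this comparison the dissected tissue also changed from the mandible to the incisor bud.

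From E14.5 to E16.5 in mesenchyme, 8 members were measured and 0 were past 2-fold in either direction, where 1.21% of 12196 genes were at least 2-fold higher and 0.402% at least 2-fold lower. Sox9 came nearest, at 0.89 [0.77, 1.0], followed by Sox6 at -0.71 [-0.84, -0.56]. Sox5 had 0.47 [0.34, 0.59] and Sox11 -0.46 [-0.52, -0.41]. Sox4, Sox8, Sox12 and Sox18 had ratios between -0.32 and 0.26. With 1 CPM added, Sox9 and Sox18 passed 2-fold upwards and Sox6 downwards, so for these 3 genes the call depended on that choice.

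From E14.5 to E16.5 in epithelium, Sox9 was higher with a log2 ratio of 1.68 [1.51, 1.84]. It was 1 of 6 members measured that was at least 2-fold higher, where 1.29% of 11441 genes were. No member was at least 2-fold lower, where 0.358% of genes were, and Sox11 came nearest at -0.84 [-0.89, -0.79]. Sox4 had 0.28 [0.20, 0.35], Sox12 0.06 [-0.13, 0.25], Sox6 -0.30 [-0.51, -0.08] and Sox21 0.19 [0.01, 0.31]. The median was 0.12 over the 6 members and 0.10 over all genes. Over the whole epithelium Sox2 went the other way from Sox9, from 50.5 to 16.8 CPM, with a log2 ratio of -1.17 [-1.35, -1.0]. Groups of epithelial cells, described below, did not all share this direction for Sox2.

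**Figure D3:**
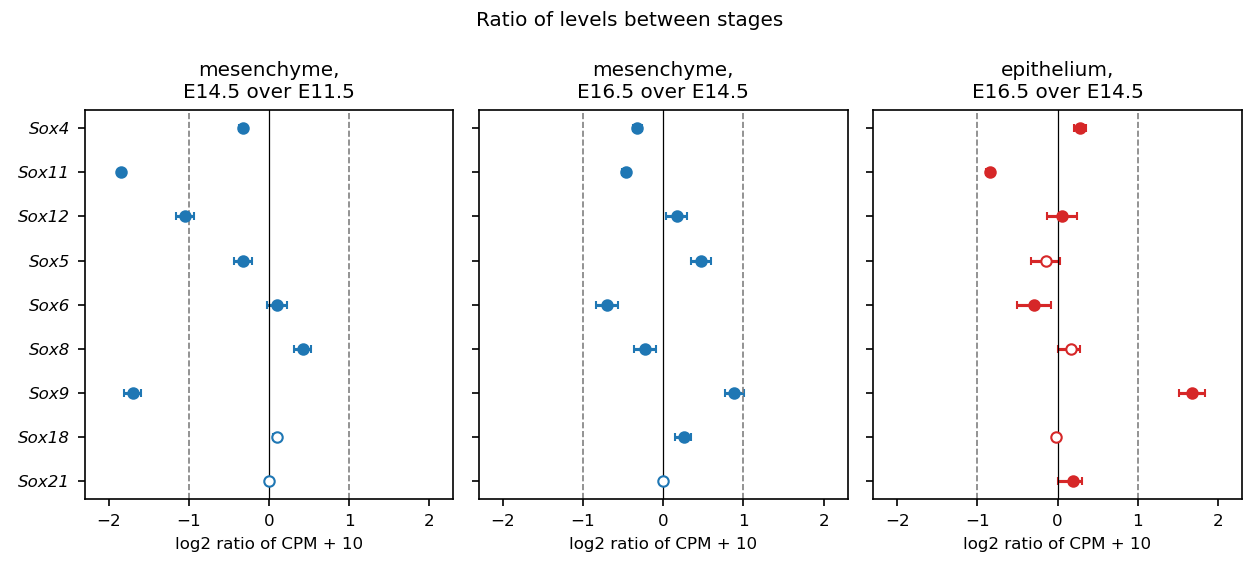
Log2 ratio of levels between stages (horizontal axis, 10 CPM added to both sides) for each Sox gene in mesenchyme and epithelium, with bars for the 95% counting interval and dashed lines at 2-fold. Open points are genes with fewer than 50 UMIs in both groups together. Sox11 (-1.85), Sox9 (-1.70) and Sox12 (-1.05) lie beyond the lower line in mesenchyme between E11.5 and E14.5, and Sox9 (1.68) beyond the upper line in epithelium.

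Mesenchyme and epithelium were then divided by genes that mark territories, with at least 2 UMIs of a group's genes and 2 times those of the next group. At E11.5, 1452 mesenchymal cells were in the Barx1 group, 733 in the Msx1/Alx1 group and 924 in the Cited1/Hand2 group, and 2111 were in none of these. Barx1 marks the proximal jaw where molars form, Msx1 and Alx1 the distal jaw where incisors form, and Hand2 the ventral arch. Sox9 was at 213 CPM [205, 221] in the Barx1 group, 67.6 CPM [61.7, 74.0] in the Msx1/Alx1 group and 34.9 CPM [30.7, 39.5] in the Cited1/Hand2 group. Its log2 ratio of Barx1 over Cited1/Hand2 was 2.31 [2.16, 2.46]. The cells in none of these groups had Sox9 at 114 CPM [109, 120], second to the Barx1 group. Over the named groups Sox5 followed the same order with 51.8, 36.2 and 27.6 CPM, and the cells in none of them had 38.2 CPM. Sox6 did not, since it was highest in the Msx1/Alx1 group with 22.1 CPM, against 12.1 and 3.78 CPM in the Barx1 and Cited1/Hand2 groups. Sox8 was also highest there, at 4.42 CPM against 1.27 and 1.54 CPM. The SoxC genes hardly varied among the named groups, with Sox11 between 1206 and 1284 CPM, Sox4 between 377 and 438 CPM and Sox12 between 64.2 and 70.5 CPM.

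At E14.5 and E16.5, mesenchymal cells were divided into a papilla-like group (1360 and 982 cells, from dental mesenchyme genes such as Msx1, Lhx6 and Lhx8) and an osteogenic group (856 and 593 cells, from bone genes such as Runx2 and Sp7). Sox9 was higher in the osteogenic group at E14.5, at 57.5 against 14.3 CPM in the papilla-like group. At E16.5 the order was the opposite, with 46.7 CPM in the osteogenic and 82.9 CPM in the papilla-like group. Within the papilla-like group the Sox9 log2 ratio of E16.5 over E14.5 was 1.93 [1.73, 2.13], and within the osteogenic group it was -0.25 [-0.50, 0.001]. Mesenchymal cells in neither group lay between these, with 34.8 CPM at E14.5 and, at the later stage, 54.7 CPM.

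Sox6 followed the osteogenic cells at both stages. It was at 37.7 CPM there against 2.63 CPM in the papilla-like group at E14.5, and at 9.04 against 2.10 CPM at E16.5. Within the osteogenic group the log2 ratio of E16.5 over E14.5 was -1.32 [-1.62, -1.01], and within the papilla-like group -0.06 [-0.25, 0.13]. Sox5 did not differ between the groups at E14.5, with 33.2 CPM in the osteogenic and 37.2 CPM in the papilla-like cells, a log2 ratio of papilla-like over osteogenic of 0.13 [-0.14, 0.39]. At E16.5 it was papilla-like, with 61.2 against 25.9 CPM and a ratio of 0.99 [0.75, 1.22]. Sox8 was on the papilla-like side at both stages, at 9.07 against 2.56 CPM and 5.55 against 1.22 CPM. Sox4 was at 220 CPM in the papilla-like and 304 CPM in the osteogenic group at E16.5, and Sox11 was the other way around, at 277 and 192 CPM.

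Epithelial groups were named by Krt15 and Meis2 (with Igfbp5 and Wnt4), by 1500009L16Rik (with Etv4 and Sema3e), by Shh, a signal of the enamel knot and of transit-amplifying cells, and by Nr2f2 and Igfbpl1. At E14.5, 207 cells were in the Krt15/Meis2 group and 208 in the 1500009L16Rik group, and 193 cells were in none of the groups. The remaining named groups held fewer than 50 cells each. Among them was a group named by Pcp4, Cldn10 and Crabp1, with 9 cells, which held 33 at E16.5. Sox6 separated Krt15/Meis2 from 1500009L16Rik cells, at 34.9 against 2.57 CPM, a log2 ratio of 1.84 [1.42, 2.11]. Sox9 did not, at 39.4 and 36.9 CPM, with a ratio of 0.08 [-0.31, 0.47]. The cells in none of the groups had Sox6 at 19.0 CPM and Sox9 at 31.0 CPM. The SoxC genes split, with Sox4 (345 against 249 CPM) and Sox12 (38.1 against 20.1 CPM) higher in Krt15/Meis2 cells and Sox11 (666 against 893 CPM) higher in 1500009L16Rik cells.

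At E16.5 the Krt15/Meis2 group held 618 cells, 1500009L16Rik 72, Shh 75 and Nr2f2/Igfbpl1 122. Sox9 was at 188 CPM [178, 198] in Krt15/Meis2 cells and 138 CPM [113, 166] in 1500009L16Rik cells, against 50.7 CPM [36.5, 68.5] in Shh cells and 45.1 CPM [33.5, 59.5] in Nr2f2/Igfbpl1 cells. The last 2 groups did not differ beyond counting error. From E14.5 to E16.5 Sox9 was higher within both groups that could be followed, by 2.0 [1.70, 2.31] in Krt15/Meis2 and 1.65 [1.29, 2.01] in 1500009L16Rik cells on the log2 scale. Sox11 was lower in both, by log2 ratios of -0.83 and -0.79. Sox6 in Krt15/Meis2 cells had a ratio of -0.79 [-1.13, -0.44]. Sox2 at E16.5 was at 64.4 CPM [48.1, 84.5] in the 1500009L16Rik group, against 2.78 CPM in Krt15/Meis2, 4.83 CPM in Shh and 0.902 CPM in Nr2f2/Igfbpl1 cells. At E14.5 Sox2 had been at 39.9 CPM [32.2, 48.8] in 1500009L16Rik cells, below the 74.3 CPM of Krt15/Meis2 cells. The 1500009L16Rik group went from 30.2% to 4.84% of epithelial cells between these stages. Sox11 in 1500009L16Rik cells of E16.5 was at 512 CPM [463.5, 563.5], against 363 to 372 CPM in the other 3 named groups of at least 50 cells. The 567 epithelial cells in none of the groups had Sox11 at 491 CPM [474, 508], which did not differ from the 1500009L16Rik group beyond counting error. They also held Sox2 at 29.0 CPM, from 193 of the 289 epithelial Sox2 UMIs, and Sox9 at 95.9 CPM.

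**Figure D4:**
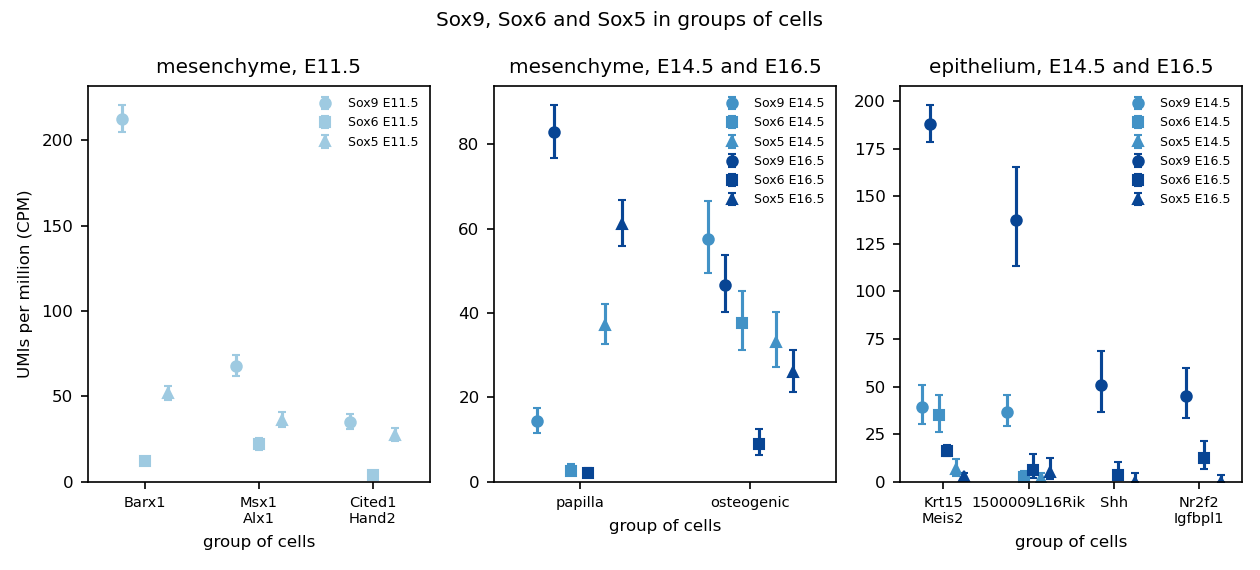
Levels of Sox9, Sox6 and Sox5 (CPM, vertical axis, with a scale of its own in each panel) in groups of mesenchymal and epithelial cells named by their marker genes, at each stage with at least 50 cells in the group, with bars for the 95% counting interval. Sox9 is at 213 CPM in the Barx1 cells of E11.5, changes from 14.3 to 82.9 CPM in papilla-like cells, and reaches 188 CPM in Krt15/Meis2 epithelium at E16.5, while Sox6 is highest in osteogenic and Krt15/Meis2 cells of E14.5.

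Since SOX5 and SOX6 work with SOX9 in cartilage, it was asked how often their RNAs were found in the same mesenchymal cell. At E11.5, a Sox5 or Sox6 UMI was present in 37.8% (700 of 1852) of cells with a Sox9 UMI and in 18.6% (625 of 3368) of cells without. At E14.5 the shares were 24.3% (92 of 379) and 12.1% (484 of 3989), counting also 1 cell called cartilage. At E16.5 they were 39.7% (240 of 605) and 19.1% (356 of 1869). Cells with a Sox9 UMI were deeper at E11.5 and E16.5, with medians of 7860 against 5664 and 8096 against 5553 UMIs. Among cells with at least 2000 UMIs, thinned to that number, the shares were 14.9% [12.6, 17.5] against 7.18% [6.41, 8.02], 18.3% [13.5, 24] against 6.80% [5.99, 7.67] and 13.9% [9.81, 18.8] against 7.62% [6.54, 8.81]. The intervals of cells with and without Sox9 did not overlap at any stage after thinning. Thinned E11.5 cells held Sox5 in 12.5% with and 5.68% without Sox9. For Sox6 these shares were 2.87% [1.85, 4.24] and 1.70% [1.33, 2.15], with overlapping intervals. At E14.5 the thinned difference was larger for Sox6 (11.2% against 2.18%) than for Sox5 (9.38% against 4.73%). At E16.5 the thinned difference came from Sox5 (13.9% against 6.98%). A Sox6 UMI was then rare in thinned cells, in 0 of 245 with and 14 of 2191 without Sox9. With all UMIs at E16.5, Sox6 was found in 4.63% [3.10, 6.62] of Sox9 cells and 1.6% [1.09, 2.28] of the others.

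**Figure D5:**
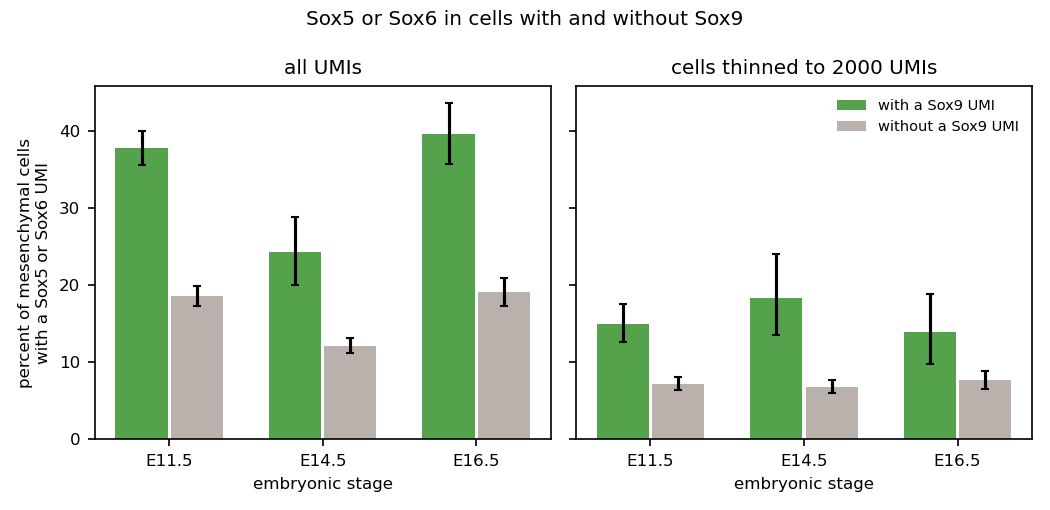
Percent of mesenchymal cells with a Sox5 or Sox6 UMI (vertical axis) among cells with and without a Sox9 UMI at each stage, with all UMIs (left) and with cells thinned to 2000 UMIs, shallower ones left out (right), with bars for the 95% Clopper-Pearson interval. The share is higher with Sox9 at every stage, 14.9%, 18.3% and 13.9% against 7.18%, 6.80% and 7.62% after thinning.

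In epithelium of E16.5 a difference was seen with all UMIs but not after thinning. With all UMIs, 16.1% [13.4, 19.1] of epithelial cells with and 7.37% [5.68, 9.36] without a Sox9 UMI held Sox5 or Sox6. The thinned shares were 2.39% [0.882, 5.13] (6 of 251) and 2.43% [1.62, 3.49] (28 of 1153). The first interval contains the second, so a modest difference could have been missed. Epithelium of E14.5 gave 13.57% [8.37, 20.4] and 10.75% [8.28, 13.6] with all UMIs. After thinning it gave 4.88% (2 of 41) and 3.79% (23 of 607). The SoxC pairs were near to independent in thinned mesenchymal cells of E11.5. There 52.7% of cells with and 51.2% without a Sox11 UMI held Sox4, and 11.4% and 10.5% held Sox12. At E16.5 Sox4 was found in 38.5% [35.3, 41.9] of thinned cells with and 33.4% [31.1, 35.8] without Sox11. Sox21 and Sox2, which oppose each other on shared targets in neural cells, were compared in epithelium. A Sox21 UMI was present in 3.18% (5 of 157) of Sox2 cells and 0.376% (2 of 532) of the others at E14.5, and in 1.68% (2 of 119) and 2.56% (35 of 1368) at E16.5. After thinning, 0 of 51 and 1 of 597 cells held Sox21 at E14.5 and 0 of 39 and 9 of 1365 at E16.5, so a difference was not detectable at this depth. Sox9 at E16.5 was found in 65.5% of Sox2 cells and 42.5% of the others, and in 25.6% [13.0, 42.1] and 17.7% [15.7, 19.8] after thinning. At E14.5 the Sox9 shares were 27.4% (43 of 157) and 18.2% (97 of 532). After thinning they were 1.96% [0.0496, 10.4] (1 of 51) and 6.70% [4.83, 9.01] (40 of 597), in the other direction with overlapping intervals.

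The genes of cartilage matrix and SOX9 targets were compared between mesenchymal cells with and without a Sox9 UMI, as CPM. Of 12 such genes, 6 had at least 50 UMIs at E11.5, and the ratio of Sox9 cells over the others was above 0 for 5 of these and below 0 for 1, where the median over all 11828 genes was 0.01. Col2a1, the main cartilage collagen, was at 154 against 76.5 CPM, a log2 ratio of 0.92 [0.84, 1.0], and Wwp2, which hosts a SOX9-dependent miRNA, at 0.43 [0.30, 0.55]. At E14.5, 5 of 6 were higher, where the median over all genes was 0.01. Among these were Col9a2 at 1.08 [0.73, 1.41], Col2a1 at 1.02 [0.65, 1.38], Wwp2 at 0.93 [0.64, 1.22] and Fgfr3 at 0.85 [0.47, 1.22]. Col11a1 was lower at -0.57 [-0.79, -0.36]. At E16.5, 7 of 7 ratios were above 0, by at most 0.47 (Col9a2), where the median over all genes was 0.03. The intervals of Wwp2 (0.15 [-0.05, 0.35]), Papss2 (0.14 [-0.09, 0.36]) and Fgfr3 (0.12 [-0.11, 0.35]) included 0. Col2a1 was by then at 0.873 CPM in mesenchyme, against 111.5 CPM at E11.5 and 5.44 CPM at E14.5. Sox9 cells were deeper than the others at E11.5 and E16.5, and the part of depth in these ratios was not tested.

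Among 12 genes of dental epithelium, 9 had at least 50 UMIs at E16.5, and 4 were higher and 5 lower in cells with a Sox9 UMI, with a median over all genes of 0.05. Among the higher were Sfrp5, a Wnt inhibitor of early stem cell progeny, at 0.98 [0.75, 1.18], Sox2 at 0.71 [0.48, 0.93] and Irx1 at 0.38 [0.16, 0.60]. Lower were Shh at -0.84 [-0.93, -0.74], the signal Fgf9 at -0.65 [-0.84, -0.47], Sp6, an ameloblast factor, at -0.47 [-0.60, -0.35], Lef1 at -0.35 [-0.54, -0.17] and Tbx1 at -0.22 [-0.36, -0.08]. At E14.5, 2 of 9 genes were higher in Sox9 cells, by at most 0.15, with a median over all genes of -0.01. Sox2 and Irx1 were among the 7 lower genes, at -0.34 and -0.43. In cells with Sox6 at E14.5, 6 of 9 genes were higher and 3 lower, with a median over all genes of -0.01. Among the higher were Irx1 (0.92 [0.54, 1.29]), Lgr5 (0.70 [0.20, 1.19]) and Sox2 (0.62 [0.26, 0.96]), and the lowest was Sp6 (-1.78 [-2.17, -1.19]). At E16.5, 6 of 9 genes were higher in Sox6 cells and 3 lower, with a median over all genes of 0.06. Sox2 was the highest at 0.54, the same direction as in Sox9 cells. Sfrp5 was the lowest at -0.99 [-1.22, -0.70], opposite to its direction in Sox9 cells. Cells with a UMI of either gene were deeper than the rest, at 10356 against 5845 median UMIs for Sox9 and 15085 against 6975 for Sox6 at E16.5, and the part of depth in these ratios was not tested.

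Of 11 vessel, arterial and lymphatic genes, 9 had at least 50 UMIs in E16.5 endothelium, and the ratio of the 62 cells with a Sox18 UMI over the 51 without was above 0 for 7 and below 0 for 2, where the median over all genes was -0.01. The tally was 2 above and 3 below at E11.5, and 0 above and 3 below at E14.5. The medians over all genes were 0.05 and -0.04 at these stages. Gja4, an arterial connexin, was at 242 against 42.4 CPM, with a log2 ratio of 2.26 [1.54, 3.01]. The other 8 genes had intervals that included 0. At E11.5 Gja4 was at 66.6 against 69.3 CPM, and at E14.5 at 69.2 against 92.3 CPM, with intervals of the ratio that included 0. Cells with a Sox18 UMI were deeper at each stage (8870 against 4140 median UMIs at E16.5), and the part of depth in this ratio was not tested.

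For each member, the 3 genes whose level followed it most closely over the 13 groups of at least 50 cells were found among 13065 genes by Pearson correlation of log2 levels. Sox18 was followed by Sox17 (0.98), the vessel receptor Notch4 (0.98) and Arhgef15 (0.97), and Sox11 by the Hippo pathway factor Tead2 (0.97), Rhobtb3 (0.97) and Zfp532 (0.95). Sox4 was followed by Ttc3 (0.99), Zkscan1 (0.97) and Cplane1 (0.97), and Sox12 by Atat1, Gm1673 and Cbx1 (0.94 to 0.95). For the SoxD genes these were Aff2, Cacna1c and Nfatc4 with Sox5 (all 0.98) and Pcolce2, Epha4 and Vcan with Sox6 (0.91 to 0.96). For the SoxE genes they were Gsta4, Tenm3 and Gm49708 with Sox9 (0.95) and Dlx1as, Tnc and Penk with Sox8 (0.93 to 0.95). Sox21 was followed by the hair and tongue protein gene Tchh (0.92), Itga3 (0.89) and Mctp2 (0.89), on a pattern that rested on 47 UMIs in its highest group. The groups share libraries and stages, so these values are descriptions over 13 points.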

How the data were processed

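The authors sequenced 3′ 10x libraries and aligned the reads to mm10 (GRCm38) with Cell Ranger 4.0.0, and deposited 1 matrix of raw UMI counts per stage over 32285 genes, before their filter on cells. No column of another sample was present (0 columns). The members, gene lists and comparisons were chosen with earlier results of these data known, and the rule that turned the marker lists into lineages was set after the data were seen.

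Counts were summed over the cells of a lineage and stage and divided by their total, using numpy 2.4.6 and scipy 1.17.1 under python 3.11.15. Cells with more than 10% erythroid marker UMIs were called erythroid, and cells that met no rule stayed unassigned (1034, 526 and 210) or mixed (26, 67 and 118). The named genes are the 9 members, the fixed lists and the 3 genes most like each member. Some genes of the lists are not reported here by name. Stage ratios were computed over all genes with at least 50 UMIs in both groups together, and the calculation was tested on simulated data. Scrublet (scanpy 1.11.5) called 0.0152%, 0.131% and 0.155% of cells doublets, too few to be of use, so doublets were not removed, and the 5% of cells with the highest scores were left out as an alternative. Depth was 49264075, 31670249 and 42895059 UMIs, and intervals cover counting error only.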

Additional observations from a re-analysis of the deposited data

Results flagged for a closer look

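Sox4 went in opposite directions in both lineages between E14.5 and E16.5. In epithelium its level was 309 CPM at E14.5 and 377 CPM at E16.5, a log2 ratio of 0.28 [0.20, 0.35]. Within groups it went from 345 [316, 376] to 383 CPM [369.5, 398] in Krt15/Meis2 cells and from 249 [229, 270] to 216 CPM [185, 250] in 1500009L16Rik cells. The intervals of the stages overlap in both groups. In the epithelial cells of none of the groups, Sox4 went from 316 [288, 347] to 388 CPM [373, 403]. The 1500009L16Rik group went from 30.2% to 4.84% of epithelial cells, and the part of this shift in the lineage ratio was not tested. In mesenchyme the Sox4 level was 325 and 258 CPM, a log2 ratio of -0.32 [-0.38, -0.27]. It is given because the only sample pair of each lineage moved the opposite way. The difference between the lineages was not tested, since each stage was 1 sample.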

How the results depend on the processing

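No paired analysis was possible because the barcodes of a stage carry no mark of their sample, and leaving out each replicate could not be run for the same reason. In mesenchyme from E14.5 to E16.5, the count of members past 2-fold was 0 as reported, 3 with 1 CPM added (Sox6 lower, Sox9 and Sox18 higher) and 1 when cells under 1000 genes or over 10% mitochondrial UMIs were removed (Sox9 higher). Thinned to 2000 UMIs, the co-detection difference went from 19.2 to 7.75 points at E11.5 and from 20.6 to 6.26 points at E16.5, and that of Sox21 between Sox2 cells and the others at E14.5 went from 2.81 to -0.168 points, where 1 cell held Sox21. With clusters in place of calls per cell, the Sox21 log2 ratio in epithelium went from 0.19 to -0.00517. By Spearman correlation, 7 of the 27 most alike genes were shared with the Pearson list. From E11.5 to E14.5, the members past 2-fold in mesenchyme went from 3 to 4 with 1 CPM added (Sox8 higher). The share of all genes past 2-fold was not computed under the alternatives, so their counts of members have no background to be set against. The other counts, taken over both directions, kept their value within 1.5 times under the alternatives run. Of 39 levels of at least 10 CPM in mesenchyme, epithelium and endothelium, only Sox12 in endothelium at E14.5 and E16.5 moved past 1.5-fold. This was with the mean of single-cell CPM (at most 1.61-fold). Many values still left their counting intervals. With that mean, 23 of 72 levels and 12 of 21 stage ratios did so. With clusters in place of calls per cell, 15 of 72 levels, 12 of 32 subfamily shares and 7 of 23 lineage ratios did so. The looser call, leaving out shared barcodes and a second naming of clusters were added after the data were seen. Among cells that had a lineage call and lay in named clusters, cluster name and call were the same for 98.4% to 99.0%. That share leaves out mixed and unassigned cells. With those counted, it was 17.3% to 80.3% in the epithelial clusters of E14.5 and 52.8% in the endothelial cluster of E11.5. Also left out were unnamed clusters of 78 cells at E11.5, 564 at E14.5 and 343, 265 and 159 cells at E16.5. These last 3 were epithelium under the looser naming. Depth limits Sox21, Sox8 and the members with few UMIs in endothelium.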
